A study of Rattus norvegicus with 12 samples.

Results

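Knockdown of Cklf1 was measured in rat aortic smooth muscle cells that had been stimulated with tumour necrosis factor alpha (TNF). The comparison set the 3 libraries labelled shRNA Cklf1 against the 3 labelled shRNA scramble, which are 6 of the 12 libraries of the series. Its members were the 13663 of 29330 transcripts with mean FPKM of 1 or more in these 6 libraries, where FPKM is fragments counted per transcript, scaled by its length and by the size of the library. The cells were primary explant cultures at passage 4, grown from the medial layer of the thoracic aorta of male rats of a strain that the labels spell Sprague-Dailey. Knockdown cells carried an adenovirus with a short hairpin RNA against Cklf1, and control cells one with a scrambled hairpin. Both groups received TNF at 25 µg/L for 24 h, so the comparison holds no hairpin library without TNF. The other 6 libraries, Ad-GFP (3) and Ad-Cklf1 (3), carried a virus for green fluorescent protein or for Cklf1 overexpression, and the labels state TNF treatment for the hairpin groups only. All cells were starved in 0.2% serum for 24 to 32 h. The labels name neither the animals nor the cultures behind a replicate, and the p-values below therefore measure only how these libraries spread, which may be technical. In such bulk samples, a change in the make-up of the culture and a change of RNA per cell cannot be told apart.

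CKLF1 is a secreted chemokine-like factor and the founding member of the family of CKLF-like MARVEL transmembrane proteins. It attracts leukocytes and has been studied in vascular smooth muscle for its part in cell growth and migration after injury. TNF acts on vascular smooth muscle through its receptors and the NF-κB pathway, which turns on adhesion molecules, cytokines and chemokines. A hairpin lowers the RNA of its target, so the transcripts of the targeted gene would be the first check of such an experiment.

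That check could not be made by name. The files give Ensembl transcript identifiers without gene symbols, and 0 of the 29330 identifiers matched the gene table used here. The identity of the cells could not be checked against smooth muscle markers for the same reason, and lists of inflammatory, contractile and matrix genes were not counted. Transcripts are therefore given by identifier, with no gene, position or sequence. One transcript, ENSRNOT00000017127, was chosen after its values were seen, because it was at 3040, 2911 and 3523 FPKM in the Ad-Cklf1 libraries and at 4.98, 4.87 and 6.92 FPKM in Ad-GFP. In scramble it was at 5.40, 2.73 and 5.63 FPKM, and in knockdown at 1.52, 0.966 and 1.84 FPKM. Each knockdown library was below each scramble library, and the group means differed 3.18-fold. The fall was 1.16 on the log2(FPKM + 1) scale used throughout (95% interval -1.80 to -0.52, limma adjusted p = 0.0337). Of the 6 fits that left out 1 library, this call held in the one without scramble replicate 2. The limma adjusted p was between 0.0536, without knockdown replicate 3, and 0.103 without scramble replicate 1, over the other 5 of these fits. Whether this transcript comes from the targeted gene was not tested.

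The knockdown libraries separated from the scramble libraries. The first principal component of the 6 libraries held 42.6% of the variance and placed scramble between -23.7 and -17.9 and knockdown between 18.3 and 24.0. The second held 18.7% and separated knockdown replicate 3, at 25.1, from knockdown replicates 1 and 2, at -18.9 and -10.2, while scramble lay between -3.32 and 5.41. Knockdown replicate 3 correlated with its group at 0.974 and 0.977, and replicates 1 and 2 with each other at 0.982. It stood at least 1 log2 unit above or below both other libraries of its group for 183 transcripts, where the other 5 libraries did so for 73 to 120. Without it, 4 of the 36 called transcripts that were named by rule or for their values no longer passed the test. ENSRNOT00000083286 and ENSRNOT00000084582, named further on, are not among these 36. Fits without another single library lost 6 to 12 of the 36 calls. Of all 2440 calls, 762 were lost without knockdown replicate 3. Read totals per library were not given in the sources used here, and steps among the lowest values gave only a rough relative depth, between 0.997 and 1.23 times that of scramble replicate 1 and highest in knockdown replicate 3.

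A single transcript carried much of the difference in total signal. ENSRNOT00000091327, chosen after its values were seen, was at 34955, 13426 and 114345 FPKM in scramble, against 447, 123430 and 1823 FPKM in knockdown. The groups overlapped over this wide range, and the transcript did not pass the test (log2 change -3.02, 95% interval -8.27 to 2.23, limma adjusted p = 0.363). Summed FPKM per library ran from 492242 to 627410 with it and from 490419 to 503980 without it.

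Many transcripts changed with the knockdown, most of them by a small amount. In knockdown, 1360 transcripts rose and 1080 fell against scramble, which is 9.95% and 7.9% of the 13663 tested and 17.9% together (limma on the 6 libraries, adjusted p below 0.05). Called changes had a median size of 0.42 log2 units (1.34-fold), with quartiles at 0.32 and 0.61. The median change over all tested transcripts was 0.01. Large changes were fewer and mostly upward, with 133 rises and 34 falls of at least 1 log2 unit and 10 rises and 2 falls of at least 2. In the plot of fold change by level, red points above the upper dotted line therefore outnumber blue points below the lower one.

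**Figure D1:**
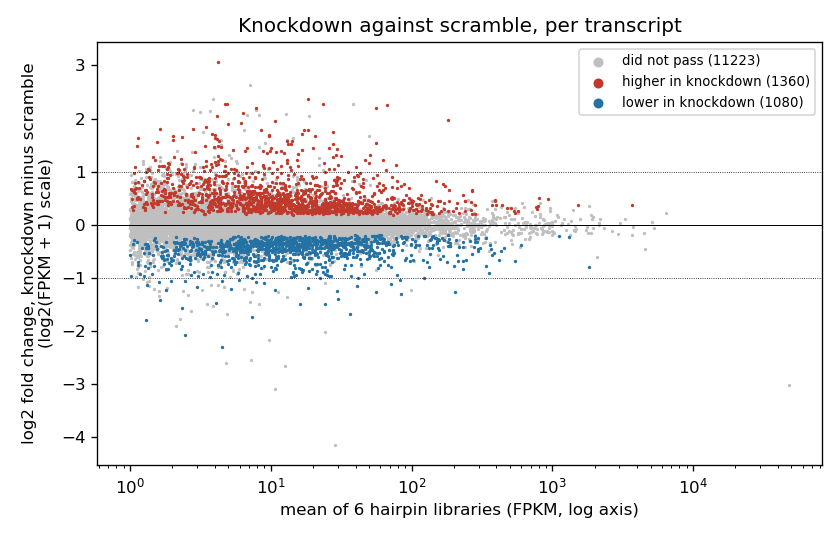
Each point is 1 of 13663 transcripts, with its mean over the 6 hairpin libraries (FPKM, log axis) and its log2 change, knockdown minus scramble, on the log2(FPKM + 1) scale. The 1360 rises are red, the 1080 falls blue and the rest grey, and dotted lines mark 1 log2 unit either way; the far right point is ENSRNOT00000091327, which did not pass the test.

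The 95% interval of the change lay wholly beyond 1 log2 unit for 41 of the 133 large rises and 9 of the 34 large falls. It lay beyond 0.5 log2 units for 126 and 33 of them. Each of the 3 knockdown libraries was at least 1 log2 unit above the scramble mean for 65 of the large rises, and at least 1 below it for 14 of the large falls. The 3 knockdown libraries did not overlap the 3 scramble libraries for 42.5% of all tested transcripts, 5801 in number, and this held for each of the 2440 called ones.

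The counts of calls fell whichever single library was left out, and each such fit also has fewer samples. Without knockdown replicate 3, 1127 transcripts rose and 859 fell, 14.5% of those tested. Of the 2440 calls, 1678 were made again in that fit and 762 were not, and 308 others were added. The direction could not change for any of the 2440, since their groups did not overlap. Fits without another library made fewer calls: 508 rises and 397 falls without scramble replicate 1, 460 and 390 without scramble replicate 2, and 559 and 449 without scramble replicate 3. The counts were 715 and 650 without knockdown replicate 1, and 499 and 444 without knockdown replicate 2. With all 12 libraries in 1 fit, which shares the spread of the Ad-GFP and Ad-Cklf1 groups, 2194 rose and 1892 fell.

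Calls were spread over all levels of expression, while large changes lay almost wholly below 100 FPKM. Between 1 and 10 FPKM, 579 of 6837 transcripts rose and 425 fell. Between 10 and 100 FPKM, 702 of 6070 rose and 576 fell. From 100 to 1000 FPKM, 77 of 705 rose and 76 fell. Among the 51 transcripts at 1000 FPKM or more, 2 rose and 3 fell. Large changes numbered 83 rises and 19 falls in the lowest class, 49 and 14 in the next, 1 and 1 in the third, and 0 in the highest. The median standard deviation between replicates in the lowest class was 0.153 log2 units in knockdown and 0.136 in scramble, and it was 0.0719 and 0.0472 from 100 to 1000 FPKM, so precision also differed with level.

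**Figure D2:**
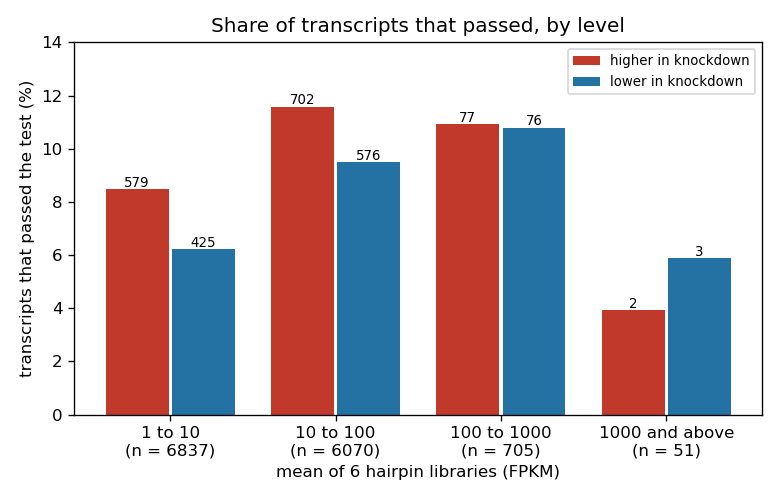
Bars give the percentage of tested transcripts that passed the test in each class of mean FPKM over the 6 hairpin libraries, red for higher and blue for lower in knockdown, with the number of transcripts above each bar. The 10 to 100 FPKM class has the tallest red bar, with 702 rises, and the 51 transcripts at 1000 FPKM or more have 2 rises and 3 falls.

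Of the largest rises, several were carried by transcripts that were clearly measured in both groups. ENSRNOT00000003075 was at 19.6, 23.5 and 22.6 FPKM in scramble, against 135, 128 and 72.7 FPKM in knockdown. Its mean rose 5.12-fold, with a log2 change of 2.26 (SE 0.25, limma adjusted p = 0.00651). ENSRNOT00000002695 was at 18.4, 18.1 and 18.5 FPKM in scramble, against 118, 112 and 49.8 FPKM in knockdown. This was a 5.10-fold rise of the mean (log2 change 2.19 with SE 0.33, adjusted p = 0.0128 in limma). Both transcripts were lower in knockdown replicate 3 than in the other 2 knockdown libraries, and still above every scramble library. ENSRNOT00000001916, the most abundant of the large rises named here, went from 68.0, 71.6 and 78.0 FPKM to 307, 339 and 231 FPKM. Its mean rose 4.03-fold (log2 change 1.98 with SE 0.15, adjusted p = 0.00462 in limma). ENSRNOT00000087162 rose from 8.29, 7.67 and 5.17 FPKM to 48.5, 50.1 and 21.1 FPKM, and ENSRNOT00000010092 from 4.81, 5.15 and 4.59 FPKM to 39.5, 41.5 and 15.2 FPKM. These had log2 changes of 2.27 (SE 0.36) and 2.37 (SE 0.38), both with a limma adjusted p of 0.0143. Replicate 3 again gave the smallest of the 3 knockdown values in each. Without it, the log2 change was 2.54 for ENSRNOT00000003075, 2.59 for ENSRNOT00000002695, 2.14 for ENSRNOT00000001916, 2.67 for ENSRNOT00000087162 and 2.83 for ENSRNOT00000010092, and all 5 passed. The calls of ENSRNOT00000002695 and ENSRNOT00000087162 were lost without scramble replicate 2 (limma adjusted p = 0.0518 and 0.0521), and that of ENSRNOT00000010092 without any one scramble library (at most 0.0542).

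In a further group of rises, replicate 3 lay close to replicates 1 and 2. ENSRNOT00000029184 was at 2.10, 1.91 and 2.43 FPKM in scramble, against 12.6, 12.9 and 15.1 FPKM in knockdown. It rose 6.31-fold in the mean (log2 change 2.21 with SE 0.10, adjusted p = 0.00265 in limma) and was at 0.148 FPKM or less in each of the 6 libraries without TNF. ENSRNOT00000028904 rose from 3.99, 4.17 and 3.90 FPKM to 16.3, 15.1 and 14.5 FPKM (log2 change 1.70 with SE 0.06, adjusted p = 0.00185 in limma). ENSRNOT00000055437 rose from 27.1, 28.2 and 29.5 FPKM to 80.5, 86.0 and 85.3 FPKM (log2 change 1.54 with SE 0.06, adjusted p = 0.00185 in limma). ENSRNOT00000037181 rose from 14.7, 12.8 and 14.4 FPKM to 42.4, 43.7 and 39.4 FPKM. All 4 had a standard error of at most 0.10 log2 units, and their calls held in each of the 6 fits that left out 1 library. ENSRNOT00000028904, ENSRNOT00000055437 and ENSRNOT00000037181 met a naming rule that required a standard deviation between replicates of at most 0.1 log2 units in each group. Their small errors were therefore selected for. Without replicate 3 their log2 changes were 2.13, 1.73, 1.53 and 1.56.

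Some of the largest values on the log scale belonged to transcripts near 0 in one group. ENSRNOT00000081645 had the largest rise, from 0.00603, 0.0457 and 0.0384 FPKM under the scrambled hairpin to 4.0, 8.93 and 12.1 FPKM in knockdown (log2 change 3.07 with SE 0.34, adjusted p = 0.00668 in limma). A pseudocount of 0.1 in place of 1 raised this value to 5.90. ENSRNOT00000083286 was at most 7.8e-05 FPKM in each scramble library and at 3.75, 1.60 and 1.44 FPKM in knockdown (log2 change 1.64, limma adjusted p = 0.0139). In the opposite direction, ENSRNOT00000077952 was at 2.92, 1.48 and 3.33 FPKM in scramble and did not exceed 0.00156 FPKM in knockdown (log2 change -1.80 with SE 0.21, adjusted p = 0.00718 in limma, and -4.66 with a pseudocount of 0.1). In Ad-GFP, ENSRNOT00000081645 was at 0.0285, 9.22 and 0.829 FPKM and ENSRNOT00000083286 at 2.87, 6.77e-05 and 0.841 FPKM, so both also varied widely within a group. ENSRNOT00000081645, ENSRNOT00000083286 and ENSRNOT00000077952 were the 3 transcripts at or below 0.1 FPKM in every library of one group and at 1 FPKM or more in every library of the other. An FPKM value per transcript depends on how reads are divided among the isoforms of a gene, and other isoforms could not be found without gene names. ENSRNOT00000001570 rose from 0.918, 1.37 and 0.635 FPKM to 9.88, 11.2 and 5.31 FPKM (log2 change 2.27 with SE 0.28, adjusted p = 0.00781 in limma). For ENSRNOT00000064903, at 2.24, 0.0287 and 0.825 FPKM in scramble and 6.91, 13.5 and 5.10 FPKM in knockdown, the call (log2 change 2.28 with SE 0.50, adjusted p = 0.032 in limma) was lost in 4 of the 6 fits that left out 1 library, those without scramble replicate 2 or 3 or knockdown replicate 1 or 2 (at most 0.0888). A pseudocount of 0.1 also ended it (log2 change 3.60, limma adjusted p = 0.0815). Its Ad-GFP libraries were at 3.14, 7.04 and 0.00905 FPKM.

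**Figure D3:**
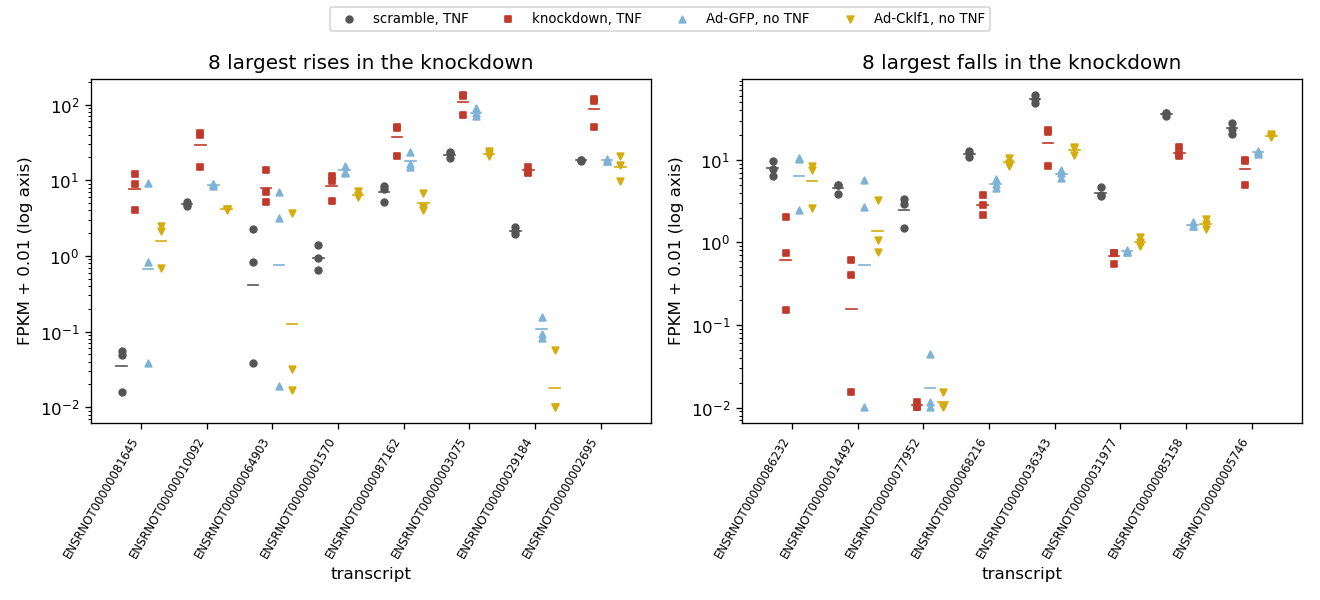
Each symbol is 1 library (FPKM + 0.01, log axis) and each short line the geometric mean of 3 libraries, for the 8 largest rises and the 8 largest falls that passed the test. Knockdown (red squares) lies above scramble (grey circles) in each transcript on the left and below it on the right; ENSRNOT00000029184 is at 0.148 FPKM or less in all 6 libraries without TNF (blue and yellow triangles).

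The largest falls were smaller than the largest rises. On this scale ENSRNOT00000086232 had the largest fall, from 7.83, 9.79 and 6.43 FPKM to 0.740, 2.01 and 0.141 FPKM (log2 change -2.30 with SE 0.36, adjusted p = 0.0139 in limma, and -3.41 with a pseudocount of 0.1). ENSRNOT00000014492 fell from 4.99, 3.81 and 4.94 FPKM to 0.00522, 0.395 and 0.601 FPKM (log2 change -2.08 with SE 0.19, adjusted p = 0.00487 in limma, and -3.81 with a pseudocount of 0.1). Both varied widely in the arm without TNF, where Ad-GFP held 2.46 to 10.5 FPKM of the former and 0.00011 to 5.75 FPKM of the latter. With the pseudocount of 0.1, the falls of ENSRNOT00000077952 (-4.66) and ENSRNOT00000014492 were larger than that of ENSRNOT00000086232. ENSRNOT00000068216 fell from 12.1, 12.9 and 10.7 FPKM to 3.71, 2.84 and 2.14 FPKM, a 4.11-fold fall of the mean (log2 change -1.74 with SE 0.16, adjusted p = 0.00487 in limma). ENSRNOT00000031977 fell from 3.72, 4.67 and 3.61 FPKM to 0.734, 0.743 and 0.541 FPKM (log2 change -1.58 with SE 0.10, adjusted p = 0.0032 in limma; -2.41 with a pseudocount of 0.1). ENSRNOT00000085158 fell from 37.4, 34.4 and 37.4 FPKM to 11.6, 11.2 and 14.2 FPKM, and was at 1.93 FPKM or less in each library without TNF (log2 change -1.49 with SE 0.10, adjusted p = 0.0032 in limma). In each of those last 3 transcripts the groups lay well apart, though lack of overlap was a condition for naming them. Without replicate 3 the changes of these 5 were -1.96, -2.23, -1.60, -1.52 and -1.59, and each passed.

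Replicate 3 gave the lowest knockdown value in other falls. ENSRNOT00000036343 was at 54.7, 61.8 and 48.3 FPKM in scramble, against 21.5, 23.3 and 8.40 FPKM in knockdown (log2 change -1.69 with SE 0.38, adjusted p = 0.0331 in limma). Without replicate 3 its change was -1.25 (limma adjusted p = 0.0094), and the call was lost when any one of the other 5 libraries was left out (at most 0.0999). ENSRNOT00000005746 fell from 23.7, 28.2 and 20.8 FPKM to 9.98, 9.75 and 4.98 FPKM (log2 change -1.49 with SE 0.26, adjusted p = 0.0179 in limma). Its call and that of ENSRNOT00000086232 were lost without scramble replicate 1 or 2 (limma adjusted p at most 0.0655 and 0.0553).

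Among transcripts whose mean reached 50 FPKM, the 5 largest falls were between 2.09-fold and 2.49-fold. ENSRNOT00000061284 fell from 121, 135 and 105 FPKM to 45.8, 59.4 and 39.9 FPKM, a fall of the mean of 2.49-fold (log2 change -1.31 with SE 0.17, adjusted p = 0.00871 in limma). ENSRNOT00000011237 fell from 76.2, 86.6 and 75.2 FPKM to 33.5, 33.2 and 30.5 FPKM, 2.45-fold, and ENSRNOT00000091904 from 290, 308 and 265 FPKM to 142, 130 and 91.6 FPKM, 2.37-fold. ENSRNOT00000023530 fell 2.17-fold, from 97.7, 99.2 and 96.6 FPKM to 51.6, 46.3 and 37.2 FPKM. All 3 had a limma adjusted p of at most 0.00998. Replicates lay close together in ENSRNOT00000019487, which fell from 114, 108 and 113 FPKM to 55.2, 54.4 and 50.8 FPKM (log2 change -1.05 with SE 0.06, adjusted p = 0.0032 in limma). Similar closeness was seen in ENSRNOT00000014552, which fell from 43.5, 43.3 and 46.1 FPKM to 16.9, 16.6 and 14.8 FPKM, and in ENSRNOT00000010811, which fell from 10.0, 11.04 and 9.66 FPKM to 4.66, 4.74 and 4.31 FPKM. ENSRNOT00000019487, ENSRNOT00000014552 and ENSRNOT00000010811 met a naming rule that required a standard deviation between replicates of at most 0.1 log2 units in each group. Their closeness was a condition of that rule. The calls of all 7 falls held in each of the 6 fits that left out 1 library. Among rises of at least 50 FPKM in the mean, that of ENSRNOT00000023504, from 28.7, 28.6 and 27.3 FPKM to 82.2, 90.3 and 49.1 FPKM (log2 change 1.31 with SE 0.23, adjusted p = 0.0176 in limma), was lost in 5 of those fits and held without knockdown replicate 3 (1.58, limma adjusted p = 0.003). The largest limma adjusted p in those fits was 0.063.

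In absolute FPKM the 3 largest called differences in each direction lay in transcripts at 388 FPKM and above. ENSRNOT00000070912 was at 2383, 2170 and 2436 FPKM in scramble, against 1277, 1296 and 1460 FPKM in knockdown, a fall of the mean of 1.73-fold (log2 change -0.79 with SE 0.08, adjusted p = 0.00577 in limma). ENSRNOT00000042459 rose from 3304, 3153 and 3228 FPKM to 4137, 4286 and 4123 FPKM, 1.30-fold (log2 change 0.37 with SE 0.05, adjusted p = 0.0101 in limma). ENSRNOT00000056022 fell 1.60-fold, from 675, 651 and 681 FPKM to 442, 421 and 388 FPKM (log2 change -0.68 with SE 0.07, adjusted p = 0.0053 in limma). These changes were small as folds. No library of one group reached the range of the other, which was a condition for naming them. Calls of 3 more transcripts were not stable. ENSRNOT00000044711 rose 1.41-fold (limma adjusted p = 0.0493), ENSRNOT00000071708 rose 1.29-fold (0.0305) and ENSRNOT00000047450 fell 1.18-fold (0.0359). Without knockdown replicate 3 their limma adjusted p was 0.0557, 0.0532 and 0.0685. The first 2 held without knockdown replicate 1 alone among the fits that left out 1 library, and the third in none of these fits (at most 0.136, 0.0967 and 0.11).

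Knockdown replicate 3 was the knockdown library nearest to the scramble mean in 56.4% of large rises and 26.5% of large falls. Among the 133 large rises it was nearest in 75 transcripts, where replicates 1 and 2 were nearest in 34 and 24. It was also farthest from scramble in 47 of these rises, where replicates 1 and 2 were farthest in 39 and 47. Among the 34 large falls it was nearest in 9 and farthest in 22. Replicates 1 and 2 were nearest in 17 and 8 of these falls, and farthest in 3 and 9. The median change against the scramble mean over the large rises was 1.36, 1.34 and 1.25 log2 units in replicates 1 to 3, and over the large falls it was -1.17, -1.19 and -1.37. Over all 1360 rises replicate 3 was nearest in 522 and farthest in 531. These are descriptions of transcripts chosen for the change itself. Among called transcripts, the changes that moved most when replicate 3 was left out were those of ENSRNOT00000010092 (from 2.37 to 2.83), ENSRNOT00000036343 (from -1.69 to -1.25) and ENSRNOT00000091906 (from 1.67 to 2.10). ENSRNOT00000091906 was at 8.91, 9.64 and 7.38 FPKM in scramble, against 32.9, 49.2 and 15.6 FPKM in knockdown (limma adjusted p = 0.0392). Its call held only without replicate 3 (limma adjusted p = 0.0098, and at most 0.108 without another library). Of the 167 large changes, 154 passed the test without replicate 3.

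**Figure D4:**
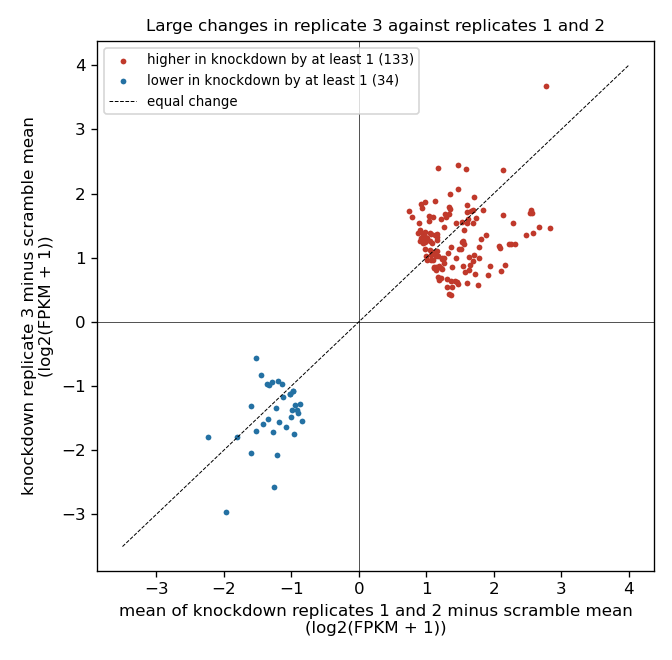
Each point is 1 of the 167 large changes that passed the test, with the mean change of knockdown replicates 1 and 2 against the scramble mean on the horizontal axis and that of replicate 3 on the vertical axis, both on the log2(FPKM + 1) scale. The dashed line marks equal change. The points at 2 or more on the horizontal axis lie mostly below it. All points keep the sign of their group in replicate 3, as they must where the groups do not overlap.

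A further 97 transcripts differed by at least 1 log2 unit without passing the test, 59 upward and 38 downward. The groups did not overlap for 38 of these, while they did not overlap for 42.5% of all tested transcripts. ENSRNOT00000056704 was at 34.3, 82.7 and 37.4 FPKM in scramble, against 16.8, 0.0298 and 0.0917 FPKM in knockdown (log2 change -4.16, 95% interval -7.02 to -1.29, limma adjusted p = 0.0588). A second such transcript, ENSRNOT00000085701, had 0.0994, 6.07 and 0.0352 FPKM in scramble, against 15.0, 14.5 and 6.68 FPKM in knockdown (2.63, interval 0.66 to 4.6, limma adjusted p = 0.0727). Both were near 0 in 2 libraries of 1 group and at 16.8 or 6.07 FPKM in the other library of that group. Below 0.1 FPKM in one library and at 5 FPKM or more in another of the same group were 54 transcripts in knockdown and 50 in scramble, 91 in all. Of these 91, 44 were among the 97 above, 0 passed the test in limma and 6 had an unadjusted p below 0.05. Of all 13663 tested transcripts, 17.9% passed and 4854 had an unadjusted limma p below 0.05. The 91 were picked for a wide spread within a group, which by itself makes passing unlikely.

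Each of the 6 transcripts named for lack of overlap without a call passed in only 1 of the 6 fits that left out 1 library. That library was replicate 3 for 2 of them, and in each case the one of its group nearest to the other group. In the remaining fits none of them passed (limma adjusted p at most 0.312). ENSRNOT00000014917 was at 0.0797, 0.0172 and 0.0420 FPKM in scramble, against 8.31, 8.25 and 0.183 FPKM in knockdown. Its log2 change was 2.16 (limma adjusted p = 0.12) with replicate 3 and 3.15 (limma adjusted p = 0.00074) without it. ENSRNOT00000090125 was at 12.7, 9.27 and 12.95 FPKM in scramble, against 0.0511, 0.0440 and 8.03 FPKM in knockdown, with -2.54 (limma adjusted p = 0.0938) and -3.58 (limma adjusted p = 0.003). In both, replicate 3 lay nearer to scramble than the other 2 knockdown libraries did. ENSRNOT00000082439 was at 0.0256 to 0.0371 FPKM in scramble, against 0.0372, 8.49 and 14.7 FPKM in knockdown, and ENSRNOT00000092036 at 7.75, 35.0 and 14.8 FPKM in scramble, against 7.02, 0 and 0 FPKM in knockdown. Neither passed the test (limma adjusted p = 0.148 and 0.0755). Without knockdown replicate 1, ENSRNOT00000082439, ENSRNOT00000056704 and ENSRNOT00000092036 passed (limma adjusted p = 0.0177, 0.0178 and 0.0302), and ENSRNOT00000085701 did so without scramble replicate 2 (0.0259). With transcripts under a mean of 10 FPKM left out, ENSRNOT00000056704 and ENSRNOT00000092036 also passed (0.0275 and 0.0377). In the fit of all 12 libraries, ENSRNOT00000056704, ENSRNOT00000085701 and ENSRNOT00000014917 passed (limma adjusted p = 0.019, 0.0246 and 0.039). The others of the 6 did not pass in that fit (limma adjusted p from 0.0513 to 0.159).

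The transcripts just inside and just outside the limit of 1 FPKM give the level at which it falls. ENSRNOT00000086503, just inside at a mean of 1.0015 FPKM, was at 1.32, 0.954 and 1.48 FPKM in scramble and 0.379, 1.03 and 0.845 FPKM in knockdown. ENSRNOT00000061556, just outside at 0.99927 FPKM, was at 0.955, 0.703 and 0.840 FPKM in scramble and 1.78, 0.716 and 1.01 FPKM in knockdown. The second on each side, ENSRNOT00000068276 and ENSRNOT00000026550, ranged from 0.692 to 1.77 and from 0.597 to 1.63 FPKM over the 6 libraries. Values of the groups overlapped in 3 of these 4.

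The libraries without TNF share no sample with the knockdown comparison and give the level of its transcripts in another setting. There, 1035 transcripts were higher and 1534 lower in Ad-Cklf1 than in Ad-GFP, which is 7.58% and 11.2% of the same 13663 (limma on those 6 libraries, adjusted p below 0.05). Of all 1360 rises in knockdown, 468 were lower and 30 higher in Ad-Cklf1 by limma. Of all 1080 falls, 272 were higher and 22 lower. Of the 133 large rises in knockdown, 63 were lower and 0 higher in Ad-Cklf1 by limma, and 1 was higher at an unadjusted p below 0.05. Of the 34 large falls, 14 were higher and 1 was lower. That 1 was ENSRNOT00000084582, at 3.83, 2.75 and 1.81 FPKM in scramble and 1.25, 0.0468 and 0.129 FPKM in knockdown, and at 2.02, 1.76 and 2.96 FPKM in Ad-GFP and 1.33, 0.601 and 0.440 FPKM in Ad-Cklf1. Below 1 FPKM in each of the 6 libraries without TNF were 9 of the large rises and 3 of the large falls, which is 6.77% and 8.82% of them, against 1.80% of all tested transcripts.

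The transcripts named by rule for passing the knockdown test numbered 35, and 20 of them also passed the test between Ad-Cklf1 and Ad-GFP, 18 in the opposite direction and 2 in the same. Of all 13663 tested transcripts, 7.58% were higher and 11.2% lower in Ad-Cklf1 by that test. ENSRNOT00000003075, which rose in knockdown, was at 70.3, 76.6 and 89.2 FPKM in Ad-GFP and fell to 24.0, 20.6 and 22.9 FPKM in Ad-Cklf1 (log2 change -1.76 with SE 0.10, adjusted p = 0.00156 in limma). ENSRNOT00000011237, which fell in knockdown, was at 28.8, 26.4 and 27.5 FPKM in Ad-GFP and rose to 48.0, 50.6 and 46.2 FPKM in Ad-Cklf1 (0.79, SE 0.06, limma adjusted p = 0.00224). Those with the same direction were ENSRNOT00000042459, at 5647, 5244 and 5341 FPKM in Ad-GFP and 6252, 6168 and 6131 FPKM in Ad-Cklf1, and ENSRNOT00000044711, at 1124, 1139 and 1180 FPKM and 1295, 1289 and 1322 FPKM. ENSRNOT00000002695, by contrast, was at 18.8, 17.8 and 18.0 FPKM in Ad-GFP and at 21.2, 15.7 and 9.85 FPKM in Ad-Cklf1, a difference that did not pass (limma adjusted p = 0.483). The knockdown change minus the overexpression change was tested in 1 fit of 12 libraries, where 35% of all tested transcripts passed and 30 of the 35 named ones did. All of the named ones but ENSRNOT00000091906 were chosen for the size of their knockdown change, in log2 units or in FPKM. That change is part of the difference tested. Those named under the limit on replicate standard deviation also had a small spread, which favours passing. The arms also differed in TNF treatment, and TNF and the direction of the manipulation cannot be told apart in the difference of the changes.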

How the data were processed

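Poly(A)-selected RNA of 12 libraries was sequenced on an Illumina instrument, per the labels' protocols. The authors deposited 1 value per Ensembl transcript and library. The unit is read as FPKM from the deposited column name tracking_id, which Cufflinks tools write, and from the values, since no header or label spells it out. The submitters' processing notes name the build Rnor 6.0. Which aligner, counting tool and annotation release were used, and whether FPKM were scaled further, is not given in the sources used here. The gene table (47357 genes, GRCr8) matched 0 identifiers, so the planned gene lists were not used.

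FPKM values were not rescaled and were taken to log2(FPKM + 1), which understates changes of low transcripts. The 13663 transcripts whose mean in the 6 hairpin libraries reached 1 FPKM were tested with limma 3.58.1 (R 4.3.3, 4 residual degrees of freedom), two-sided, with Benjamini-Hochberg adjustment over all of them. The test was also run on simulated data with independent normal noise and known changes, which checks the code and not the calls above. Ad-Cklf1 against Ad-GFP was fitted in the same way, a comparison added after the data were seen. An all-library fit gave the difference of the changes.

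Named transcripts were the 8 largest called changes per direction, the 5 largest at a mean of at least 50 FPKM, the 3 largest in absolute FPKM, the 3 largest with replicate SD of at most 0.1, the 3 largest not called without overlap, and the 3 called changes moved most by knockdown replicate 3. The members, lists and rules were chosen with earlier results of these data known. Alternatives varied pseudocount, filter, scaling, fit, replicate block and single libraries.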

Additional observations from a re-analysis of the deposited data

How the results depend on the processing

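None of the 36 called transcripts named by rule or for their values changed sign under the alternatives tried. These were not run for ENSRNOT00000083286, ENSRNOT00000084582 and the 4 at the limit of 1 FPKM. The filters, the fit of 12 libraries, the replicate block and the trend leave a fold change as it is by construction. The pseudocount and the fits that left out 1 library could not reverse a sign either, since the groups did not overlap in any of the 36. The scalings are not bound in this way, but their factors lay between 0.988 and 1.012 over the 6 libraries. Such factors are too close to 1 to reverse any of the 36 changes, the smallest of which was -0.24. The absence of a sign change was therefore fixed in advance. Of these 36, 23 passed the test in each of the 6 fits that left out 1 library and 13 did not. These fits gave 460 to 1127 rises and 390 to 859 falls, and 80 to 146 rises and 24 to 46 falls of at least 1 log2 unit. A group of 2 is assumed there to vary like the group of 3, and each such fit has fewer samples. All 12 libraries in 1 fit gave 2194 rises and 1892 falls. The replicate block gave 579 rises and 476 falls and ended the calls of ENSRNOT00000064903, ENSRNOT00000044711, ENSRNOT00000042459 and ENSRNOT00000047450. Whether libraries of equal number belong together cannot be decided from 3 libraries per group. Deviations from the group means correlated at -0.00596 to 0.0564 between libraries of equal number and at -0.0659 to 0.0711 between those of other number. Of the 6 libraries, 2 correlated best with their own number. A filter at 10 FPKM, which tests fewer transcripts, gave 53 rises and 18 falls of at least 1 log2 unit. A pseudocount of 0.1, which shrinks low values less, gave 199 rises and 64 falls of that size. Both scalings, no filter and the trend with a robust prior kept all 4 counts within 1.5 times. No filter ended the calls of ENSRNOT00000064903, ENSRNOT00000036343, ENSRNOT00000017127, ENSRNOT00000044711 and ENSRNOT00000091906, and each scaling that of ENSRNOT00000044711. The scalings shifted the median change by at most 0.01 log2 units. Rises made up 55.7% of the calls on the values as deposited, and 52.0% after median-ratio scaling.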
